A study of Caenorhabditis elegans with 24 samples.

Results

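The let-7 hairpin of Caenorhabditis elegans gives a pair of mature microRNAs (miRNAs), let-7-5p and let-7-3p, one from each arm. Both were followed here in 24 small RNA libraries, as the 2 rows listed under the precursor cel-let-7 among 450 rows of the deposited count table. The libraries came from whole animals carrying 1 of 6 genotypes of alg-1, the gene of an Argonaute protein that holds miRNAs. Of these, 4 carry amino acid changes modelled on human AGO1 changes of neurodevelopmental disorders (NDD), namely alg-1(ma447, F180del), alg-1(ma443, G199S), alg-1(zen25, V254I) and alg-1(zen18, H751L). The other groups were the null alg-1(tm492, 0), called null below, and the wild-type strain N2 (WT). For each genotype 2 libraries were made from small RNA of the lysate (total) and 2 from small RNA precipitated with ALG-1 (IP), all after 45 h of feeding at 20 °C. Each genotype is represented by 1 allele. Libraries 1 and 2 of a group are not stated to be separate cultures. The p-values therefore reflect how far such libraries differ, which may be technical variation only.

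let-7 is a founding member of the miRNA class and a heterochronic gene: its 5p arm accumulates in late larvae and represses targets such as lin-41, and without it the skin cells of the worm do not adopt their adult programme on time. Drosha and Dicer cut the hairpin out of a primary transcript and leave a duplex of both arms. An Argonaute keeps one arm, the guide, here let-7-5p, while the partner arm, here let-7-3p, is usually lost. ALG-1 and its paralogue ALG-2 are the main Argonautes of this pathway in the worm.

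In the WBcel235 assembly with the Ensembl release 115 annotation, the let-7 gene lies on the minus strand of the X chromosome from 14743590 to 14745321. Its hairpin spans 14744173 to 14744271, which is 99 bases, inside 3 annotated primary transcripts of 1732, 891 and 707 bases. The 5p arm covers 14744234 to 14744255 and the 3p arm 14744191 to 14744212, both 22 bases long. The protein-coding gene C05G5.7 (14743670 to 14743780, same strand) lies within the span of the primary transcripts, 392 bases from the hairpin, and the hairpin itself overlaps 0 other genes of that annotation on either strand. The deposited table gives names and reads but no coordinates, so these positions come from the annotation alone.

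Library totals ran from 4927806 to 12654183 miRNA reads in total RNA and from 3940626 to 13835895 in IP, and levels are given as reads per 1000000 miRNA reads of the library (RPM). Reads of miRNAs measure neither the alg-1 transcript nor the yield of a precipitation, so the genotypes could not be checked here, and a level is a share of the miRNA reads of its own library. Markers of muscle (miR-1-3p), neurons (miR-124-3p, lsy-6-3p), glia (miR-228-5p) and intestine (miR-60-3p) had reads in 12 of 12 total libraries. The summed miR-35 family, which marks embryos and the germline and whose 8 listed members all had reads in each G199S library, reached 121373 and 95430 RPM in G199S total libraries, against 10565 to 19719 RPM in the total libraries of the other genotypes. In IP it reached 56723 and 62651 RPM in G199S, against 2354 to 8629 RPM elsewhere. Its part in the G199S results for let-7 was not tested.

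let-7-5p was an abundant miRNA in every genotype, and in total RNA edgeR called it in none of the 5 comparisons with WT (0 at an unadjusted p under 0.05 and 0 by DESeq2). It ranked between place 12 and place 28 among all miRNAs in the 12 total libraries. Total RNA held 11343 and 17297 RPM of let-7-5p in F180del. The G199S libraries had 7395 and 5938 RPM, and the V254I libraries 11668 and 6436 RPM. H751L gave 12997 and 3365 RPM, null gave 19773 and 4166 RPM, and WT gave 5616 and 7797 RPM. Only in F180del did both libraries lie above both WT libraries, and in H751L and null library 1 lay above and library 2 below WT. The higher library of a pair held 3.86 times the lower in H751L and 4.75 times in null, against 1.39 times in WT.

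Tested in edgeR over all 303 miRNAs of the total libraries, the log2 fold change of let-7-5p against WT was 0.54 ± 0.76 in F180del (SE, n = 2 libraries per group throughout, adjusted p = 0.681), where 15.5% of miRNAs were called at an adjusted p under 0.05. It was -0.24 ± 0.76 in G199S (edgeR adjusted p = 0.891, 11.9% of miRNAs called) and 0.71 ± 0.76 in null (edgeR adjusted p = 0.622, 11.9% called). H751L gave 0.52 ± 0.76 (edgeR adjusted p = 0.965, 1.98% called), but -1.22 without its library 1 and -0.10 without WT library 1. V254I gave 0.39 ± 0.76 (edgeR adjusted p = 0.960). For V254I edgeR called 0 of 303 miRNAs in total RNA, with 16 at an unadjusted p under 0.05, and DESeq2 called 0. In null the value without library 1 was -0.86. With 2 libraries against 2 an exact permutation test of a single value cannot go below 0.333. The lysates came from whole animals, so fewer let-7 expressing cells and less let-7 per cell cannot be told apart at any level given here.

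**Figure D1:**
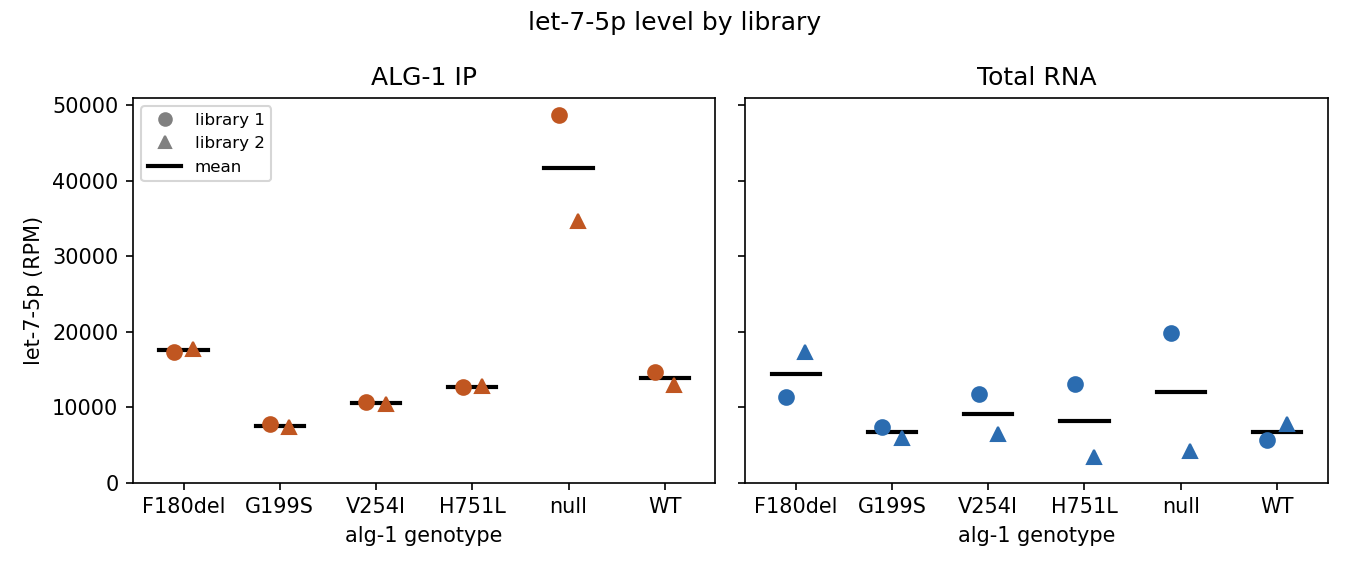
Level of let-7-5p (RPM) by genotype in the ALG-1 IP (left) and in total RNA (right), with circles for library 1, triangles for library 2 and a bar for their mean. In IP the null libraries (48674 and 34652 RPM) stand above all others, while in total RNA the library pairs of H751L and null spread from below to above the WT pair.

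In the precipitate, let-7-5p rose in null and fell in G199S. IP libraries of F180del held 17348 and 17741 RPM, those of G199S 7757 and 7325 RPM, and those of V254I 10720 and 10424 RPM. H751L gave 12616 and 12812 RPM, null 48674 and 34652 RPM, and WT 14701 and 12978 RPM. The F180del and null pairs lay above the WT pair and the G199S, V254I and H751L pairs below it, and the libraries of a pair lay at most 1.40 times apart in every genotype. In null let-7-5p rose by 1.82 ± 0.22 on the log2 scale (edgeR adjusted p = 0.000611 over 269 miRNAs, of which 41.3% were called). The median change of all miRNAs in null IP was -0.77, and let-7-5p ranked 44 of 269 from the top. Leaving out 1 library at a time gave 1.81 to 2.26, past the threshold each time. The null IP libraries also stood apart in how many miRNAs had reads, 153 and 232 of 437, against 269 to 327 in the IP libraries of the other genotypes, and the part of this in the null IP results was not tested.

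In G199S let-7-5p fell by 1.17 on the log2 scale with an SE of 0.21 (edgeR adjusted p = 0.00203), where 25.3% of miRNAs were called and 4.83% were called lower. Leaving out each G199S or WT IP library in turn gave -1.18 to -1.11. Scaling moved the value further, to -1.42 with RLE factors (edgeR adjusted p = 0.000821) and -0.88 with library totals (edgeR adjusted p = 0.0162). In F180del the change was -0.32 ± 0.21 (edgeR adjusted p = 0.268, 32.3% called), although the RPM of both libraries exceeded WT: with library totals in place of TMM scaling, which shifts every F180del IP value up by 0.66, it was 0.34 (adjusted p = 0.311, with 0.0835 to 0.607 over all alternatives). For H751L it was 0.13 ± 0.21 (edgeR adjusted p = 0.754, 2.23% called) and became -0.02 with relative log expression (RLE) factors and -0.12 with library totals. V254I gave -0.58 ± 0.21 (edgeR adjusted p = 0.993), in a comparison where edgeR called 0 of 269 miRNAs, 8 had an unadjusted p under 0.05 and DESeq2 called 0. let-7-5p was among these 8, at place 4 by unadjusted p (edgeR, 0.0200). Ordered by mean level, null (41663 RPM) stood above F180del (17545 RPM), followed by WT, H751L, V254I and G199S (7541 RPM). Of the 5 neighbour pairs in that order edgeR called 1, F180del and null (adjusted p = 0.000260, adjusted over miRNAs and not over pairs), while 3 had an unadjusted p under 0.05 and DESeq2 called 2. In total RNA the order was F180del, null, V254I, H751L, WT and G199S, and of its 5 neighbour pairs edgeR called 0, with 0 at an unadjusted p under 0.05 and 0 by DESeq2.

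The null IP is what the precipitation recovers from animals with the alg-1(tm492, 0) allele, and all 4 NDD alleles held less let-7-5p there than null did. Against null, let-7-5p fell by 2.14 on the log2 scale in F180del (SE 0.22, edgeR adjusted p = 0.000260), where 50.6% of miRNAs were called and 13.4% called lower. It fell by 3.0 in G199S (SE 0.23, edgeR adjusted p = 7.08e-06, 44.2% called) and by 2.40 in V254I (SE 0.22, edgeR adjusted p = 0.000106, 46.8% called). In H751L it fell by 1.70 (SE 0.22, edgeR adjusted p = 0.00103, 39.8% called). With library totals the F180del value was -1.25, still past the threshold, and with only H751L and null fitted the H751L value missed it (-1.82, adjusted p = 0.0572, the highest over its alternatives). The 4 medians of all miRNAs in these comparisons were positive, 1.22, 1.40, 0.99 and 0.63 in the order of the alleles just given. The null IP libraries are shared by these comparisons.

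let-7-3p was scarce, and in total RNA it rose in F180del, G199S, H751L and null. F180del total libraries held 264 and 321 RPM, G199S 156 and 297 RPM, and V254I 10.5 and 14.3 RPM. H751L gave 169 and 523 RPM, null 175 and 363 RPM, and WT 41.8 and 25.02 RPM. The V254I pair lay below both WT libraries and every other pair above them. Mean levels were 8.76 times WT in F180del, 6.78 times in G199S, 10.4 times in H751L, 8.05 times in null and 0.371 times in V254I. The H751L value was 15.7 times without its library 1 and 5.05 times without its library 2, and the null value 5.24 times without its library 2. RPM scales by library totals, with which edgeR gave log2 changes of 3.13 in F180del, 2.76 in G199S, 3.37 in H751L, 3.01 in null and -1.43 in V254I. From lowest to highest library let-7-3p spanned 49.8 times in total RNA, while let-7-5p spanned 5.88 times.

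In edgeR with TMM scaling the let-7-3p log2 change against WT in total RNA was 2.64 ± 0.69 in F180del (adjusted p = 0.0236) and 2.61 ± 0.69 in G199S (adjusted p = 0.0241). It was 3.48 ± 0.72 in H751L (edgeR adjusted p = 0.0259), the second smallest unadjusted p of that comparison and 1 of only 6 calls in it. In null it was 2.90 ± 0.70 (edgeR adjusted p = 0.0266) and in V254I -1.40 ± 0.67 (edgeR adjusted p = 0.850). All 4 missed the threshold when either WT library was left out, at values of similar size and a larger SE. Without WT library 1 the change was 3.07 ± 0.98 in F180del (edgeR adjusted p = 0.118), 2.52 ± 0.95 in G199S (0.196), 3.49 ± 1.00 in H751L (0.319) and 2.82 ± 0.96 in null (0.149). Without WT library 2 it was 2.68 ± 0.96 in F180del (edgeR adjusted p = 0.0847), 2.13 ± 0.93 in G199S (0.165), 3.10 ± 0.98 in H751L (0.170) and 2.42 ± 0.94 in null (0.155). Leaving out library 2 of the genotype itself also ended the call in G199S (2.11, adjusted p = 0.156), H751L (2.42, adjusted p = 0.220) and null (2.02, adjusted p = 0.134). The H751L call was also lost with all precursor rows kept (3.28, adjusted p = 0.0512) and with only H751L and WT fitted (3.32, adjusted p = 0.143). The F180del value was 3.45 without its library 1 and 3.26 with the null libraries left out, both past the threshold. Over all alternatives the adjusted p of these changes ran from 0.00194 to 0.118 in F180del, 0.00696 to 0.196 in G199S, 0.000235 to 0.319 in H751L and 0.00190 to 0.155 in null. By mean level the order was H751L, F180del, null, G199S, WT and V254I, and of the 5 neighbour pairs only G199S and WT differed.

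**Figure D2:**
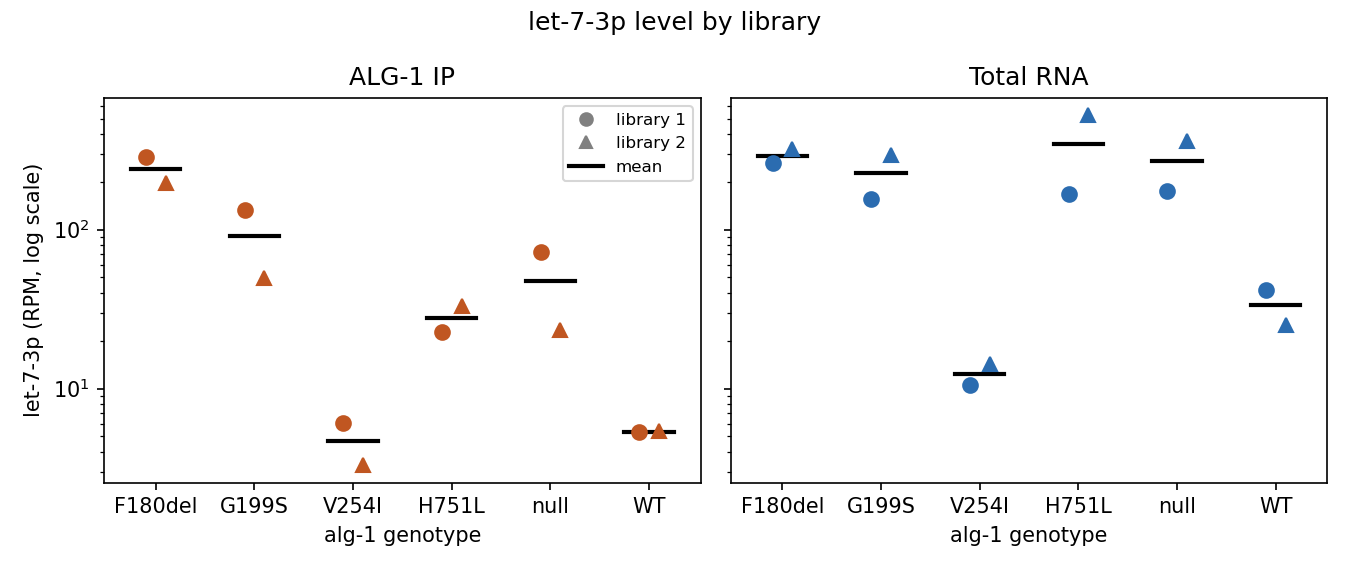
Level of let-7-3p (RPM, log scale) by genotype in the ALG-1 IP (left) and in total RNA (right), with circles for library 1, triangles for library 2 and a bar for their mean. V254I and WT are the lowest genotypes in both panels, with 3.30 to 6.04 RPM in IP and 10.5 to 41.8 RPM in total RNA.

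In the precipitate let-7-3p rose in F180del, G199S and null. F180del IP libraries held 285 and 196 RPM, G199S 133 and 49.6 RPM, and V254I 6.04 and 3.30 RPM. H751L gave 22.7 and 32.9 RPM, null 72.3 and 23.4 RPM, and WT 5.32 and 5.40 RPM, the WT values resting on 63 and 67 reads. The V254I pair straddled WT and each other pair lay above it. The means amounted to 44.9 times WT in F180del, 17.1 times in G199S, 5.19 times in H751L and 8.93 times in null. Without library 1 the G199S value was 9.26 times and the null value 4.36 times, and without library 2 the null value was 13.5 times. RPM scales by library totals, with which edgeR gave log2 changes of 5.49 in F180del, 4.09 in G199S, 2.37 in H751L and 3.16 in null. With TMM scaling the log2 change was 4.82 ± 0.72 in F180del (edgeR adjusted p = 0.000507), 3.78 ± 0.69 in G199S (edgeR adjusted p = 0.00208) and 3.32 ± 0.68 in null (edgeR adjusted p = 0.00364). These 3 calls held in all 4 leave-outs each, at 4.51 to 5.08, 2.94 to 4.35 and 3.05 to 3.83, and the lowest G199S value was that without its library 1. With only null and WT fitted, the null value missed the threshold (3.49, adjusted p = 0.0780, the highest over its alternatives).

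H751L gave 2.63 ± 0.66 for let-7-3p in IP, which missed the threshold (edgeR adjusted p = 0.0623) although it had the ninth smallest unadjusted p of 269 miRNAs and passed in DESeq2 (2.49, adjusted p = 0.00255) and with the null libraries left out of the edgeR fit (2.59, adjusted p = 0.00783). Over all alternatives its adjusted p ran from 0.00255 to 0.363. V254I gave -0.42 ± 0.63 (edgeR adjusted p = 0.993). Against null IP, let-7-3p fell by 3.73 in V254I (SE 0.69, edgeR adjusted p = 0.00246), but missed the threshold with only V254I and null fitted (-3.66, adjusted p = 0.0756, the highest over its alternatives). In F180del it was 1.50 ± 0.63 on the log2 scale against null (edgeR adjusted p = 0.0668), and 2.33 with library totals (adjusted p = 0.0129, with 0.0129 to 0.256 over all alternatives). G199S gave 0.46 ± 0.62 (edgeR adjusted p = 0.552) and H751L -0.68 ± 0.62 (edgeR adjusted p = 0.390) against null. F180del and G199S thus exceeded WT in let-7-3p but were not told apart from null by this test, and a difference of 1 on the log2 scale lies within 2 SE of the G199S value. By mean level the IP order was F180del, G199S, null, H751L, WT and V254I. Of its 5 neighbour pairs edgeR called 0, with 1 at an unadjusted p under 0.05 and 1 called by DESeq2.

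**Figure D3:**
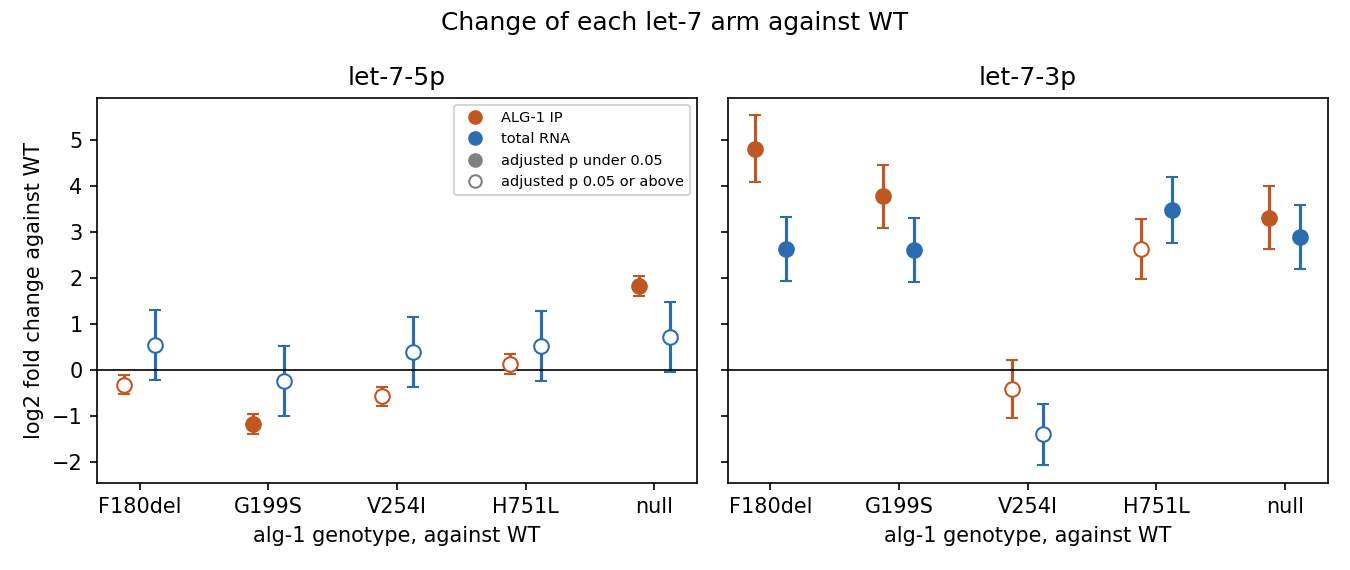
Log2 fold change against WT (edgeR) of let-7-5p (left) and let-7-3p (right) in each genotype, in IP and in total RNA, with bars of 1 SE and filled points for an adjusted p under 0.05. let-7-5p passed in IP in G199S (-1.17) and null (1.82), and let-7-3p passed in F180del, G199S and null in both fractions and in H751L in total RNA.

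The share of let-7 reads that came from the 3p arm is a ratio within a library and does not depend on scaling between libraries. The 5p arm had more reads than the 3p arm in 24 of 24 libraries. In IP the 3p share was 1.62% and 1.09% in F180del (exact binomial 95% intervals 1.52% to 1.71% and 1.04% to 1.15%, which cover counting error only) and 1.69% and 0.673% in G199S. It was 0.0563% and 0.0316% in V254I, 0.180% and 0.256% in H751L, and 0.148% and 0.0673% in null. The WT precipitate had 0.0361% and 0.0416% (intervals 0.0278% to 0.0462% and 0.0322% to 0.0528%). F180del and G199S libraries all lay above every IP library of the other genotypes, and their mean shares were 34.9 and 30.4 times that of WT, or 17.3 times in G199S without its library 1.

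The ratio of let-7-3p to let-7-5p reads was tested with limma across 83 hairpins in IP and 99 in total RNA. In IP its log2 rose by 5.11 ± 0.67 in F180del (limma adjusted p = 0.000372), where 48.2% of hairpins were called and 45.8% called higher. In G199S it rose by 4.79 ± 0.67 (limma adjusted p = 0.000699), where 37.3% were called. Without G199S IP library 1 that value was 4.12 and without library 2 it was 5.46, both past the threshold. The median over all hairpins was 2.26 in F180del and 1.66 in G199S, and let-7 ranked 14 and 16 of 83 from the top. Reads of all minor arms together made up 3.36% and 2.78% of the F180del IP libraries and 1.90% and 1.76% of the G199S IP libraries, against 0.272% and 0.233% of the WT IP libraries.

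In H751L IP the log2 ratio was 2.46 ± 0.67 (limma adjusted p = 0.114, 1.2% of hairpins called), the fifth highest of 83, while the median hairpin stood at -0.28. The same value passed with only H751L and WT fitted (adjusted p = 0.0357) or with the null libraries left out (adjusted p = 0.0201), and over all alternatives its adjusted p ran from 0.0201 to 0.370. In null IP it was 1.36 ± 0.67 (limma adjusted p = 0.143, 20.5% called), and 1.93 without null IP library 2 (adjusted p = 0.0400, with 0.0400 to 0.411 over all alternatives). V254I gave 0.13 ± 0.67 (limma adjusted p = 0.982), in a comparison where limma called 0 of 83 hairpins and 0 had an unadjusted p under 0.05.

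In total RNA the 3p share was higher than in IP in all 6 genotypes, both total libraries lying above both IP libraries of the genotype. It was 2.28% and 1.82% in F180del, 2.06% and 4.77% in G199S, and 0.0900% and 0.221% in V254I. H751L gave 1.28% and 13.5%, null 0.878% and 8.01%, and WT 0.739% and 0.320%. Library 2 of H751L and of null stood apart, with the highest 3p shares and the lowest let-7-5p levels of all total libraries. The total mean was 1.51 times the IP mean in F180del, 2.89 times in G199S, 3.54 times in V254I, 33.8 times in H751L and 41.2 times in null, against 13.6 times in WT. The H751L and null values rest on total library 2, without which they were 5.88 and 8.15 times, below the WT value. Without total library 1 they were 61.8 and 74.2 times, without null IP library 1 the null value was 66.0 times, and without WT total library 1 the WT value was 8.23 times. Without total library 2 the G199S value was 1.74 times and the V254I value 2.05 times, and without G199S IP library 1 the G199S value was 5.08 times. None of the 5 genotypes passed in total RNA: the log2 ratio against WT was 2.09 in F180del (limma adjusted p = 0.306, 12.1% of hairpins called), 2.73 in G199S (0.171, 13.1% called), 3.20 in H751L (0.223, 5.05% called) and 2.50 in null (0.247, 13.1% called), each with an SE of 1.37. V254I gave -1.79 (limma adjusted p = 0.677), where limma called 0 of 99 hairpins, 0 of them at an unadjusted p under 0.05.

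**Figure D4:**
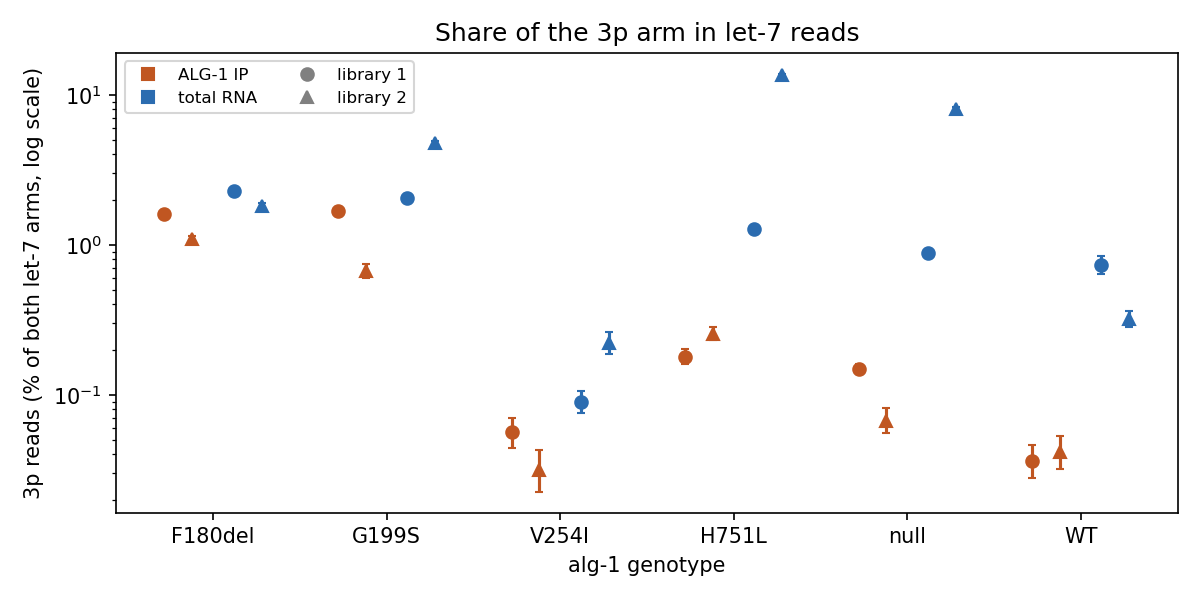
Share of let-7 reads from the 3p arm (percent of both arms, log scale) by genotype, with IP and total RNA in separate colours, circles for library 1 and triangles for library 2. In IP the F180del and G199S libraries (0.673% to 1.69%) lie above all other IP libraries, and in every genotype both total libraries lie above both IP libraries.

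IP was then set against total RNA within each genotype, in an edgeR fit of all 24 libraries and 315 miRNAs. In null let-7-5p rose in IP by 2.80 ± 0.66 on the log2 scale (edgeR adjusted p = 0.00258, 35.6% of miRNAs called), with 4.23 without null total library 1, 2.10 without null total library 2 and 1.80 with library totals, all past the threshold. It missed the threshold with only null libraries fitted (2.47, adjusted p = 0.149, the highest over its alternatives). H751L gave 1.66 ± 0.63 (edgeR adjusted p = 0.0509, 30.8% called), and 3.10 without its total library 1 (adjusted p = 0.00342, with 0.00342 to 0.417 over all alternatives). WT gave 1.58 ± 0.63 (edgeR adjusted p = 0.0725, 21.9% called), and passed when only WT libraries were fitted (1.71, adjusted p = 0.00440, with 0.00440 to 0.356 over all alternatives). Both values were smaller under other scalings. With RLE factors H751L stood at 0.93 (edgeR adjusted p = 0.139) and WT at 1.16 (0.0963). With library totals H751L stood at 0.64 (edgeR adjusted p = 0.371) and WT at 1.04 (0.182). V254I stood at 0.53 ± 0.62 (edgeR adjusted p = 0.695, 13.7% called), G199S at 0.42 ± 0.61 (edgeR adjusted p = 0.716, 7.94% called) and F180del at -0.06 ± 0.61 (edgeR adjusted p = 0.957, 8.89% called), the last of which turned to 0.06 with RLE factors and 0.29 with library totals. The F180del value was also positive in its 4 leave-outs (0.17 to 0.50) and without the filter on low counts (0.61). It was 0.21 with only F180del libraries fitted and 0.06 in DESeq2.

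let-7-3p was lower in IP than in total RNA in all 6 genotypes by fitted value, although in F180del its IP pair (285 and 196 RPM) overlapped its total pair (264 and 321 RPM). It fell by 2.41 in H751L (SE 0.66, edgeR adjusted p = 0.00880, 15.6% of miRNAs called lower), by 1.67 in null (SE 0.64, edgeR adjusted p = 0.0475, 22.5% called lower) and by 2.02 in WT (SE 0.65, edgeR adjusted p = 0.0303, 12.7% called lower). The median of all miRNAs was -0.45 in H751L, -0.88 in null and -0.36 in WT. Counted from the highest change, let-7-3p ranked 237 of 315 in H751L, 179 in null and 240 in WT, so in null it stood near the middle of all miRNAs. The WT call was lost without any 1 of its 4 libraries, at adjusted p of 0.0609 to 0.207, and without the filter on low counts (-1.92, adjusted p = 0.0576). Its adjusted p ran from 0.00216 to 0.207 over all alternatives, and with library totals the WT value was -2.64. The H751L call was lost without its total library 2 (-1.75, adjusted p = 0.127) or IP library 1 (-2.33, adjusted p = 0.0705), and with library totals the H751L value was -3.64. Over all alternatives its adjusted p ran from 6.30e-06 to 0.127. The null call was lost without its total library 2 (-0.96, adjusted p = 0.369) or IP library 2 (-1.58, adjusted p = 0.102), and the null value was -2.49 with library totals. Over all alternatives its adjusted p ran from 0.00746 to 0.369. F180del gave -0.63 ± 0.63 (edgeR adjusted p = 0.564), G199S -1.09 ± 0.63 (edgeR adjusted p = 0.313) and V254I -1.19 ± 0.64 (edgeR adjusted p = 0.231).

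Whether the IP to total ratio of an allele differed from that of WT was tested as an interaction, and neither arm passed in any genotype. For let-7-5p the difference of log2 ratios was -1.64 ± 0.87 in F180del (edgeR adjusted p = 0.466, 2.22% of miRNAs called), -1.16 ± 0.87 in G199S (edgeR adjusted p = 0.689, 0.952% called) and 1.22 ± 0.87 in null (edgeR adjusted p = 0.554, 1.27% called). V254I gave -1.04 ± 0.87 and H751L 0.08 ± 0.87. The H751L value turned to -0.23 with RLE factors and -0.41 with library totals. It was -0.39 with only the compared groups fitted, -0.23 in DESeq2 and -0.91 to 1.36 over its 8 leave-outs. For V254I edgeR called 0 of 315 miRNAs, with 5 at an unadjusted p under 0.05 and 0 by DESeq2, and for H751L edgeR called 0, with 27 at an unadjusted p under 0.05 and 3 by DESeq2. For let-7-3p the differences ran from -0.39 ± 0.89 in H751L to 1.39 ± 0.89 in F180del (edgeR adjusted p = 0.630).

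let-7-5p belongs to a family that shares its seed, the bases that pair with targets, with miR-48-5p, miR-84-5p and miR-241-5p, which act at earlier larval transitions, and with the less studied miR-794-5p and miR-795-5p. These 6 are the listed members found with a named arm. let-7-5p made up 10.1% to 15.3% of their reads in total libraries, and miR-48-5p was the largest member in all 24 libraries at 57.3% to 82.9%. In IP let-7-5p made up 18.4% and 17.2% of family reads in null and 9.43% and 9.48% in G199S, against 13.2% and 12.3% in WT. The family as a whole took 26.4% and 20.1% of miRNA reads in null IP, against 11.1% and 10.5% in WT IP. In total RNA the 2 libraries of a genotype diverged for the family as they did for let-7-5p, with 9.92% and 2.35% in H751L and 14.9% and 3.18% in null, against 5.32% and 7.24% in WT.

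In null IP 4 of the 6 family members rose and 0 fell by edgeR (17.1% of miRNAs called higher), with a list median of 1.25 against -0.77 for all miRNAs. Beside let-7-5p these were miR-241-5p (1.88, edgeR adjusted p = 0.00262), miR-84-5p (1.28, adjusted p = 0.0398) and miR-48-5p (1.21, adjusted p = 0.00208). In G199S IP 3 of 6 fell and 0 rose (4.83% of miRNAs called lower): let-7-5p, miR-84-5p (-1.43, edgeR adjusted p = 0.0373) and miR-241-5p (-1.43, adjusted p = 0.0119), with a list median of -0.85 against 0.24 for all miRNAs. With library totals edgeR called 2 of the 6 lower, and miR-84-5p missed the threshold (-1.09, adjusted p = 0.0697). With RLE factors it called 4 lower, miR-48-5p being the added member (-0.77, adjusted p = 0.0244). DESeq2 also called 4 lower, with 90 of all 269 miRNAs called in either direction. In IP of F180del, V254I and H751L edgeR called 0 of 6, with 2, 3 and 0 members at an unadjusted p under 0.05 in that order. Of all 269 miRNAs, 113, 8 and 46 had such a p in the same order. In F180del IP edgeR with RLE factors called 2 lower, miR-84-5p (-1.26) and miR-241-5p (-1.01), and with library totals 0. DESeq2 also called 2 lower there, with 111 of all 269 miRNAs called in either direction. In V254I and H751L IP DESeq2 called 0. Against null IP, 4 of 6 fell in F180del (13.4% of miRNAs called lower), 5 in G199S (10% called lower), 4 in V254I (18.6% called lower) and 3 in H751L (16% called lower). In total RNA the only family call against WT by edgeR with TMM scaling was miR-795-5p. It rose in F180del (3.71, edgeR adjusted p = 0.0105, 11.2% of miRNAs called higher) and G199S (2.60, adjusted p = 0.0378, 10.9% called higher). DESeq2 called 2 of 6 higher in F180del total RNA, where it called 80 of all 303 miRNAs in either direction. In G199S total RNA it called 1 higher and 1 lower, with 74 of 303 miRNAs called. With RLE factors edgeR also called miR-241-5p lower in G199S total RNA (-2.01, adjusted p = 0.0419).

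The other listed heterochronic miRNAs were lin-4-5p and miR-237-5p, which share a seed with each other and not with let-7-5p. lin-4-5p, which starts the larval cascade upstream of let-7, had 1836 and 1669 RPM in null IP, against 6035 and 3961 RPM in WT IP. It fell by 1.24 on the log2 scale there (SE 0.33, edgeR adjusted p = 0.0124), where let-7-5p rose. In H751L IP it had 2252 and 2032 RPM, below both WT libraries, without a call by edgeR or DESeq2. The IP pairs of F180del, G199S and V254I overlapped the WT pair. For G199S IP edgeR with RLE factors (-1.16, adjusted p = 0.0231) and DESeq2 called it lower, and edgeR with TMM or library totals did not. In G199S total RNA lin-4-5p had 1907 and 1476 RPM, against 9844 and 4255 RPM in WT, and fell by 2.24 (SE 0.61, edgeR adjusted p = 0.0260). miR-237-5p was called by edgeR with TMM scaling in 0 of the 10 comparisons with WT, 1 of them (H751L IP, 0.60) at an unadjusted p under 0.05. With library totals it was higher in F180del IP (1.18, edgeR adjusted p = 0.00979, against 0.52 and 0.139 with TMM and 0.35 and 0.362 with RLE factors), and DESeq2 called it lower in G199S IP (-0.77, adjusted p = 0.0191, against -0.52 and 0.174 in edgeR with TMM).

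**Figure D5:**
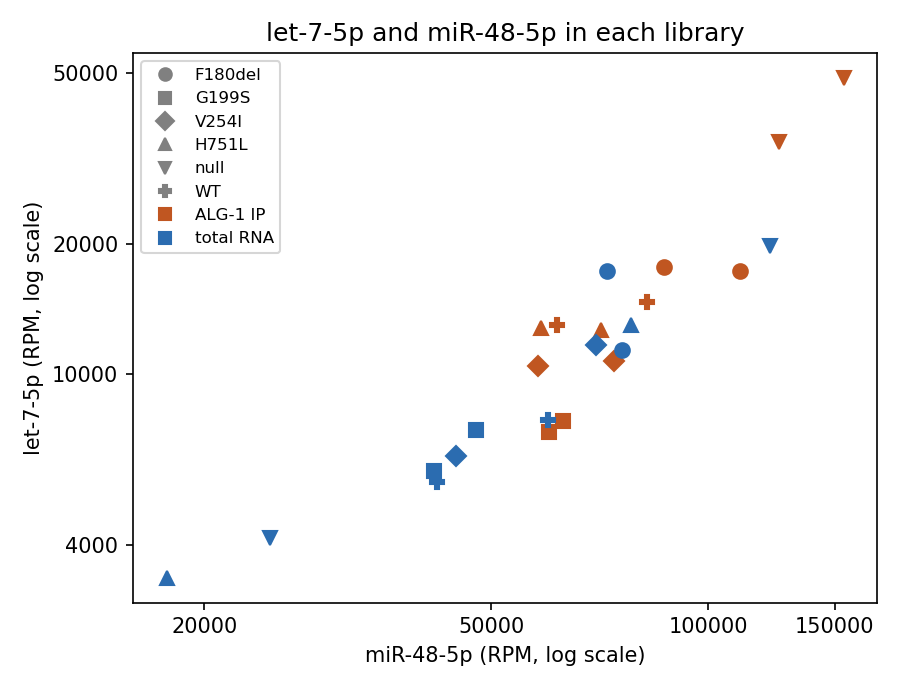
let-7-5p against miR-48-5p (both RPM, log scales) in the 24 libraries, with a symbol per genotype and a colour per fraction. The points run along one band, from H751L total library 2 (3365 RPM of let-7-5p and 17738 RPM of miR-48-5p) to null IP library 1 (48674 and 154241 RPM in the same order).

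By Pearson correlation of log2(RPM + 1) over the 12 total libraries, the miRNA most like let-7-5p among 182 with a mean of at least 10 RPM was miR-48-5p (r = 0.954), followed by miR-238-3p and miR-59-3p (both 0.814). Over the 12 IP libraries, with 159 miRNAs compared, they were miR-241-5p (r = 0.939), miR-1829c-3p (0.938) and miR-48-5p (0.912). For let-7-3p they were miR-5592-3p (0.839), miR-1-5p (0.824) and miR-72-3p (0.817) in total RNA, and miR-1-5p (0.980), miR-246-3p (0.943) and miR-240-3p (0.928) in IP. The arms of let-7 themselves correlated at -0.09 in total RNA and 0.19 in IP. Libraries of a genotype share their animals' background and each library its total, so these values describe the libraries and carry no p.

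The partner arms of the same list did not all follow let-7-3p. Of 8 found, 3 rose in F180del total RNA by edgeR (11.2% of miRNAs called higher), namely let-7-3p, miR-48-3p (3.0, adjusted p = 0.0250) and miR-237-3p (3.03, adjusted p = 0.0148). In G199S total RNA let-7-3p and miR-237-3p (2.93, edgeR adjusted p = 0.0144) rose (10.9% called higher). In H751L let-7-3p alone of the 8 rose by edgeR (1.65% called higher), but 4 had an unadjusted p under 0.05 and DESeq2 called 3 higher. Of all 303 miRNAs 30 had such a p there, and DESeq2 called 19 in either direction. With RLE factors lin-4-3p stood at 5.37 in H751L (edgeR adjusted p = 0.0566). In null 4 rose by edgeR (7.59% called higher): let-7-3p, miR-84-3p (2.18, edgeR adjusted p = 0.0422), miR-237-3p (3.96, adjusted p = 0.00445) and lin-4-3p (adjusted p = 0.0279). The last had 177 and 626 reads in null total libraries, against 0 and 20 reads in WT. In V254I edgeR called 0 of 8 in total RNA and 0 of 7 in IP, 0 had an unadjusted p under 0.05 in either, and DESeq2 called 0.

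In IP 7 partner arms could be tested, of which edgeR called 3 higher in F180del (23.8% of miRNAs called higher), 3 in G199S (20.4%) and 3 in null (17.1%). miR-48-3p had 4361 and 2626 RPM in F180del, against 75.5 and 54.2 RPM in WT, and rose by 5.10 ± 0.59 (edgeR adjusted p = 0.000111). miR-237-3p had 217 and 184 RPM in F180del, against 4.05 and 3.71 RPM in WT, and rose by 5.02 ± 0.58 (edgeR adjusted p = 0.000111). Both also rose in G199S IP, by 2.03 ± 0.52 and 4.52 ± 0.56 (edgeR adjusted p = 0.0143 and 0.000127). In null IP miR-84-3p (2.93, edgeR adjusted p = 0.00708) and miR-237-3p (2.52, adjusted p = 0.00378) rose together with let-7-3p, while in H751L IP edgeR called 0 of 7, with 2 at an unadjusted p under 0.05 and 2 called higher by DESeq2. Of all 269 miRNAs in H751L IP 46 had such a p, and DESeq2 called 21 in either direction.

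Within WT the partner arms also differed in where they were found. let-7-3p and miR-84-3p (-2.18, edgeR adjusted p = 0.0172) were lower in IP than in total RNA, whereas miR-48-3p was higher in IP (1.85, edgeR adjusted p = 0.0406). miR-48-3p was called higher in IP than in total RNA in each of the other 5 genotypes too, by 1.86 in null to 3.34 in F180del. These calls depended on scaling: with RLE factors miR-48-3p kept its direction in all 6 genotypes but passed in F180del (3.35, adjusted p = 0.00604) and G199S (3.17, adjusted p = 0.00813) alone, and in WT it stood at 1.35 (adjusted p = 0.145).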

How the data were processed

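Per the file headers, the deposited table gives raw read counts, not normalized, for each mature miRNA of each precursor, and the authors' deposited RPM sheet holds the same counts per 1000000 miRNA reads. The submitters' processing notes name FastQC 0.11.8, cutadapt, Bowtie 1.2.2 and DESeq2 but no roles. No source used here gives the genome build, the miRNA annotation or how reads matching more than 1 miRNA were treated, so near-identical miRNAs may share reads. A sheet whose 48 per-sample columns match no label was not used.

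Of 437 mature names, 10 stand under more than 1 precursor. The row with the most reads was kept, which removed 13 rows and touched neither let-7 arm. Tests used edgeR 4.0.16 under R 4.3.3 with filterByExpr, TMM factors and quasi-likelihood F-tests between group means. The 12 total libraries (303 miRNAs), the 12 IP libraries (269) and all 24 (315) had a fit each. A standard error (SE) is the size of the log2 change divided by the square root of F. P-values were adjusted by Benjamini-Hochberg across every miRNA tested in the comparison, with a threshold of 0.05. Arm ratios were tested with limma 3.58.1 (trend) on log2 of each count plus 0.5, for hairpins with a mean minor-arm count of at least 10. DESeq2 1.42.0 served as an alternative. The code was tested on simulated data.

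The let-7 arms and the lists of family members, partner arms and markers were chosen with earlier results of these data known. Named are both arms in every comparison, members of these lists, and the 3 miRNAs most correlated with each arm in each fraction. Listed miR-793 has no named arm in the table and was left out. Replicate numbers were not used to pair libraries in the main tests. The alternatives were RLE factors, library totals, no filter on low counts, only the compared groups, all precursor rows, DESeq2, a replicate block, null libraries left out, and each library left out in turn. For the arm ratio, a pseudocount of 1 and a minor-arm minimum of 1 took the place of the scaling, filter, row and tool alternatives.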

Additional observations from a re-analysis of the deposited data

Results flagged for a closer look

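The IP to total ratio of miR-795-5p, a member of the let-7 seed family, differed between F180del and WT in the test of that difference. miR-795-5p had 519 and 362 RPM in F180del IP and 189 and 213 RPM in F180del total RNA, against 366 and 293 RPM in WT IP and 5.89 and 14.9 RPM in WT total RNA. The WT total values rest on 29 and 168 reads. The log2 ratio of IP to total was -4.66 ± 0.88 in F180del relative to WT (SE, n = 2 libraries per group and fraction, edgeR adjusted p = 0.00958, with 2.22% of 315 miRNAs called). It was -4.19 with RLE factors (adjusted p = 0.00704) and -3.84 with library totals (adjusted p = 0.0150). In G199S edgeR with TMM scaling called 0 of the 6 family members in this test. There miR-795-5p also had a negative value, -2.93 with RLE factors (edgeR adjusted p = 0.0417) and -2.89 with library totals (0.101).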

How the results depend on the processing

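Of 60 let-7 values 20 passed the threshold, and 45 of 712 alternative values ended or made a call; 36 had another sign, none of them for a called value. With only the compared groups fitted, calls were lost for let-7-3p in H751L total (3.32), null IP (3.49), V254I against null (-3.66) and IP against total in null (-1.94), and for let-7-5p in H751L against null (-1.82) and IP against total in null (2.47). Under the same setting let-7-3p in H751L IP (2.55), let-7-5p in IP against total in WT (1.71) and the H751L IP arm ratio (2.46) passed. With null libraries left out, let-7-3p in H751L IP (2.59), let-7-5p in IP against total in H751L (1.68) and WT (1.58), and the H751L IP arm ratio (2.46) passed. Without the filter on low counts, let-7-3p in H751L IP (2.62) and let-7-5p in IP against total in H751L (1.73) and WT (1.66) passed, and let-7-3p in IP against total lost its call in null (-1.70) and WT (-1.92). DESeq2 called let-7-3p in H751L IP (2.49), library totals called it in F180del against null IP (2.33), and all precursor rows ended it in H751L total (3.28). The cause was not tested.

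Leaving out 1 library at a time, let-7-3p in total RNA ran from 2.68 to 3.45 in F180del, 2.11 to 3.0 in G199S, 2.42 to 3.82 in H751L and 2.02 to 3.31 in null. In IP it ran from 1.05 to 2.02 in F180del against null. For IP against total it ran from -3.06 to -1.75 in H751L, -2.45 to -0.96 in null and -2.15 to -1.84 in WT, and let-7-5p in H751L from 0.83 to 3.10. The null IP arm ratio ran from 0.79 to 1.93. A lone remaining library is assumed to vary like the other groups.

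Libraries with the same number deviated together (correlation over 0.1) in 8 of 15 genotype pairs in total RNA, 10 of 15 in IP and 2 of 6 between IP and total, with medians of 0.20, 0.18 and -0.04. In the same order they ran from -0.337 to 0.608, -0.110 to 0.385 and -0.0967 to 0.301. The main tests took the libraries to share only a number, although these values do not settle whether some shared a day or batch. With a replicate block 2 of 60 calls changed: let-7-5p in IP against total in H751L passed (1.74, edgeR adjusted p = 0.0422) and let-7-3p in IP against total in null did not (-1.61, adjusted p = 0.0607). Depth limits let-7-3p most in IP, where V254I and WT libraries held 40 to 77 reads of it.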
